A study of Mus musculus with 16 samples.

Results

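The loss of APLP2 was measured in mouse hippocampus as 8 arrays without APLP2 against 8 arrays with it, which together are all 16 arrays of the study. The arrays without APLP2 were the 4 from APLP2KO mice (genotype APLP2-/-) and the 4 from N-dCKO mice (genotype APP-/-; APLP2-/-). The arrays with APLP2 were the 4 from WT mice (wild type) and the 4 from APPKO mice (genotype APP-/-). Each side thus held 4 arrays with APP and 4 without it, and the main effect of APLP2 loss is the mean of 2 differences, APLP2KO minus WT with APP present and N-dCKO minus APPKO with APP absent. All mice were male, 2 months old and of the strain labelled C56/BL6, and total RNA of whole hippocampus was extracted with Trizol and hybridised as biotin-labelled cRNA to Affymetrix arrays. The series title calls the double knockout neuronal and conditional. The sources used here give neither the Cre line and the cells that kept the alleles, nor the origin of the targeted stem cells and the number of backcrosses. Nothing in the labels says that the 4 arrays of a genotype came from separate animals, so the spread behind each p-value is that between arrays and could be technical.

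APLP2 (amyloid precursor-like protein 2) is a relative of APP, the amyloid precursor protein, and of APLP1. All are membrane proteins with a large extracellular part and a short cytoplasmic tail, and they are cut by the same kinds of secretases, which release their extracellular parts and a tail fragment. APP and APLP2 are expressed by neurons and many other cells, APLP1 mainly by neurons, and family members can stand in for each other, so that mice without both APP and APLP2 in all cells die soon after birth while the single knockouts live.

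Values are MAS5 signals, the brightness that the MAS5 algorithm gives to a probe set (a group of short probes for 1 transcript) on a linear scale. Median signals were 79.7 to 102 per array. Each array correlated with the others of its genotype at a mean of 0.986 to 0.990. The ratio of the 3' to the 5' Gapdh probe set, a measure of RNA integrity, was 0.741 to 0.834 (median 0.800) on the arrays without APLP2 and 0.745 to 0.806 (median 0.768) on those with it. N-dCKO arrays 1, 2 and 4 stood apart in genes of the choroid plexus, the secretory epithelium of the ventricles next to the hippocampus. The mean log2 signal of 19 such genes was 6.41, 6.86 and 6.81 on these arrays, 8.75 on N-dCKO array 3, and 8.54 to 9.93 on the other 12 arrays. Counts below are therefore also given without these 3 arrays, in a fit where N-dCKO array 3 alone stands for its genotype and is assumed to vary like the others.

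The targeted transcript was low on every array whose label lacks APLP2. The brightest Aplp2 probe set had a signal of 1235, 1501, 847 and 1065 in APLP2KO and 860.4, 938, 1132 and 1064 in N-dCKO arrays. It had 6186, 5857, 6168 and 5725 in WT and 5734, 5945, 5406 and 6026 in APPKO arrays. All 8 arrays without APLP2 lay far below the 8 with it, at a mean of 1162 ± 276 in APLP2KO against 5984 ± 229 in WT and of 998.5 ± 122 in N-dCKO against 5778 ± 277 in APPKO (SD, n = 4 each). The remaining signal was thus 19.4% of WT and 17.3% of APPKO. The 5 Aplp2 probe sets had log2 differences of -2.46, -2.07, -3.16, -3.45 and -1.40, each at 0.000408, the smallest p that an exact two-sided permutation test with 4900 arrangements within APP state can give. The sources used here do not say where these probe sets lie relative to the deleted exons.

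The other family members did not differ detectably with APLP2 loss. The brightest App probe set averaged 19654 ± 1410 in APLP2KO and 2191 ± 195 in N-dCKO, against 18499 ± 1098 in WT and 2511 ± 180 in APPKO (SD, n = 4 each). Its log2 difference for APLP2 loss was -0.055 (exact permutation p = 0.403), and that of the other App probe set that passed the filter was -0.017 (p = 0.766). App signal was thus low on the 8 arrays labelled APP-/-, N-dCKO included, and arrays with and without APLP2 overlapped within each state of APP. Aplp1, the relative that all 4 genotypes keep, averaged 15214 ± 1144 in APLP2KO and 14453 ± 1218 in N-dCKO, against 14834 ± 952 in WT and 15189 ± 440 in APPKO. Both Aplp1 probe sets had a log2 difference close to 0 (-0.020 and -0.021, exact permutation p = 0.688 and 0.680). Of the 13 tested genes of the APP family and of the secretases that cut it, Aplp2 was called and the other 12 were not.

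Across the transcriptome, APLP2 loss shifted a small set of genes. Of 11664 genes tested with limma, 107 (0.917%) had an adjusted p below 0.05 and are called changed, 35 (0.3%) higher and 72 (0.617%) lower without APLP2. With each array centred on its median, which put the median difference of all genes at -0.041, the split was 19 higher and 82 lower. At an unadjusted p below 0.05 there were 1226 genes (10.5%). A log2 fold change is given ± its SE. Of the 107 shifts, 60 were below 0.5 on the log2 scale, 21 were at or above 1, and the median was 0.43. In 31 genes (0.266%) all 8 arrays without APLP2 lay on one side of all 8 with it, above in 11 (0.0943%) and below in 20 (0.171%), and 26 of the 31 were called. Without N-dCKO arrays 1, 2 and 4 there were 63 called genes (0.54%), of which 36 were among the 107, and the other 71 of the 107 kept their sign and did not pass. Named genes that did not pass there are given with their value in that fit. Microglia genes gave 6 of the 107 calls, the chromosome of Aplp2 gave 35 and choroid plexus genes gave 11.

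**Figure D1:**
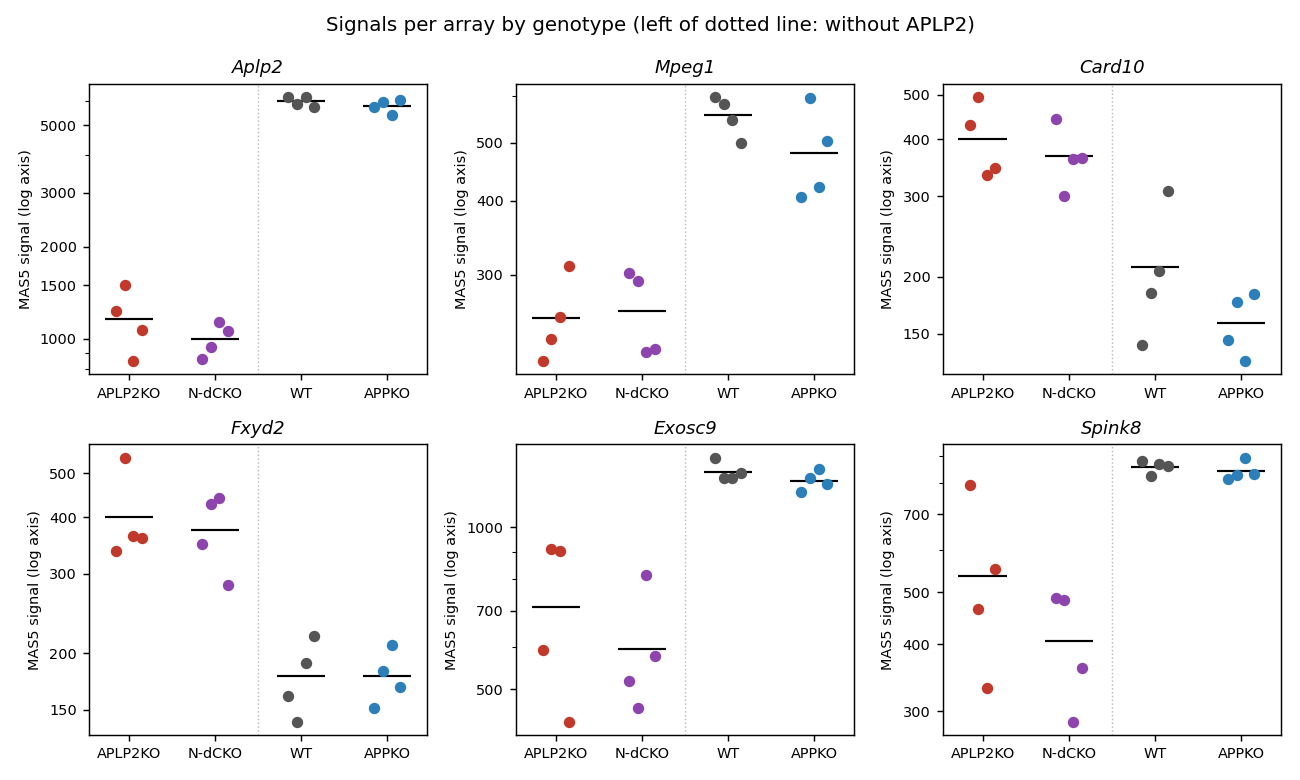
MAS5 signal (log axis) of Aplp2, Mpeg1, Card10, Fxyd2, Exosc9 and Spink8 on each array by genotype, with 4 points and their mean (line) per genotype and the arrays without APLP2 left of the dotted line. All 8 arrays without APLP2 lie on one side of the 8 with it for each of the 6 genes except Card10, where WT array 4 reaches the range of the arrays without APLP2.

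Of the genes that mark microglia, 6 fell without APLP2 and 0 rose. Microglia are the resident macrophages of the brain, and the list held surface receptors, complement C1q chains, lysosomal proteins and signalling adaptors. The 6 called genes were 27.3% of the 22 tested, beside 0.917% of all genes called and 0.617% called lower. In all, 20 of the 22 had a negative difference, against 51.8% of all genes, with a median of -0.18, against -0.0037 for all genes. The median was -0.21 for APLP2KO against WT and -0.14 for N-dCKO against APPKO. In these whole-tissue samples, fewer microglia and less RNA per microglial cell cannot be told apart.

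The largest and most regular shift was in Mpeg1 (perforin-2), a protein with which macrophages and microglia make pores in microbes. Its signal was 215, 234, 255 and 309.7 in APLP2KO and 302, 292, 222 and 225 in N-dCKO arrays. The signal was 598, 581, 547 and 499.8 in WT and 406, 595, 421 and 504 in APPKO arrays. The highest of the 8 arrays without APLP2 lay below the lowest of the 8 with it, and Mpeg1 fell by about the same amount with APP present (-1.12) and absent (-0.86; main effect log2 fold change -0.99 ± 0.10, adjusted p = 1.44e-05, limma). Fcrls, an Fc receptor-like protein that is a marker of resident microglia, ranged from 319.9 to 536, median 454, without APLP2, against 521 to 867, median 697, with it. The ranges overlapped only through APPKO array 1 and APLP2KO array 1, and the main effect was -0.69 ± 0.11 (adjusted p = 0.00187). Selplg, the selectin ligand PSGL-1, ranged from 384 to 490.1, median 450.3, without and 478 to 711, median 595, with APLP2 (log2 fold change -0.42 ± 0.064, adjusted p = 0.00171). Its ranges met at 1 array on each side, APLP2KO array 3 and APPKO array 4.

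Both C1q chains on the called list, which form the recognition molecule of the classical complement pathway, shifted by less. C1qa had signals of 1284, 1382, 1477 and 1278 in APLP2KO and 1158, 1238, 986 and 1209.8 in N-dCKO, against 1637, 1613, 1526 and 1514 in WT and 1383, 1569, 1513 and 1489.5 in APPKO (log2 fold change -0.30 ± 0.051, adjusted p = 0.0051). The shift was -0.38 with APP absent and -0.21 with APP present, and the interaction was not called (adjusted p = 1). C1qc differed by -0.25 ± 0.049 (adjusted p = 0.0157), and C1qb, the other chain, by -0.16 (adjusted p = 0.173), which did not pass. Ctss, the lysosomal protease cathepsin S, had 1603 to 2198, median 2076, without and 2042 to 2789, median 2581, with APLP2 (log2 fold change -0.36 ± 0.079, adjusted p = 0.029). The 2 ranges overlapped, with APPKO arrays 3 and 4 at 2042 and 2174.

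The receptors most used as markers of resting microglia did not pass the test. Cx3cr1 (fractalkine receptor) differed by -0.11 (adjusted p = 0.567), P2ry12 (ADP receptor) by -0.017 (0.958), Csf1r (CSF-1 receptor) by -0.062 (0.611) and Tmem119 by -0.16 (0.345). The signalling adaptors Fcer1g (-0.30, adjusted p = 0.0754) and Tyrobp (-0.20, 0.132) did not pass either. The mean log2 signal of the whole list was 9.08 to 9.20 in APLP2KO and 8.89 to 9.09 in N-dCKO, against 9.33 to 9.48 in WT and 9.10 to 9.35 in APPKO. APLP2KO lay below WT on every array, while N-dCKO and APPKO had adjoining ranges, all N-dCKO arrays below all APPKO arrays.

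Without N-dCKO arrays 1, 2 and 4, the calls of Mpeg1 (-1.09), Fcrls (-0.84), Selplg (-0.49) and C1qa (-0.40) held, while C1qc (-0.26, adjusted p = 0.154) and Ctss (-0.26, 0.401) did not pass. There were 4 called microglia genes when the Gapdh ratio of the array was a covariate, 3 when the covariate was the choroid plexus mean, and 5 to 7 when any single array was left out. The part of RNA integrity and of the choroid plexus signal in the smaller shifts was not tested further.

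Promoters of called microglia genes were examined because these genes shifted together. A further reason is that the ETS factor PU.1, which microglia need, binds a short core motif. Those of Fcrls, C1qc and Mpeg1 are printed below, and that of Ctss, which lacks the motif, is not. The motif AGGAAGT (on the other strand ACTTCCT), printed in capitals, was searched on both strands of the 250 bases before each gene start, in RefSeq promoters of GRCm38.p6. It was in the promoters of 2 of the 4 called genes that the promoter table holds (C1qc and Fcrls, not Mpeg1 and Ctss) and in 2525 (7.69%) of all 32851 promoters. Selplg and C1qa are the other called genes. The motif starts 195 bases before the gene start of C1qc and 75 bases before that of Fcrls. A match is a description of the letters, and the absence of one says nothing of whether the factor binds. The promoters of Fcrls (chr3:87263525-87263774, minus strand), C1qc (chr4:136892915-136893164, minus strand) and Mpeg1 (chr19:12460520-12460769, plus strand) read 5′ to 3′:
Fcrls: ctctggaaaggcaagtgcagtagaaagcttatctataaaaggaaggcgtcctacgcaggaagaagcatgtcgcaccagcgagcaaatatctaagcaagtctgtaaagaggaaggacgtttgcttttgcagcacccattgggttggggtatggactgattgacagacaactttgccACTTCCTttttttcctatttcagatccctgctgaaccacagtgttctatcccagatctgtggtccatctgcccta
C1qc: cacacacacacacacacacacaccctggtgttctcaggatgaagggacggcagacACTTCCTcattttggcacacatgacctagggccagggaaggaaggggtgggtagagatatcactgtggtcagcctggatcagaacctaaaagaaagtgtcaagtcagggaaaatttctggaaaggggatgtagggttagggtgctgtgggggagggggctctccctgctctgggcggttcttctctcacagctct
Mpeg1: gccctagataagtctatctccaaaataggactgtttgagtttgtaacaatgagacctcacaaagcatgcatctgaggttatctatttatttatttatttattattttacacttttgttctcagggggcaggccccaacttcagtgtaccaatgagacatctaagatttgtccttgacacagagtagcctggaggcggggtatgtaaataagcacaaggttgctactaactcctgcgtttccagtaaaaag

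**Figure D2:**
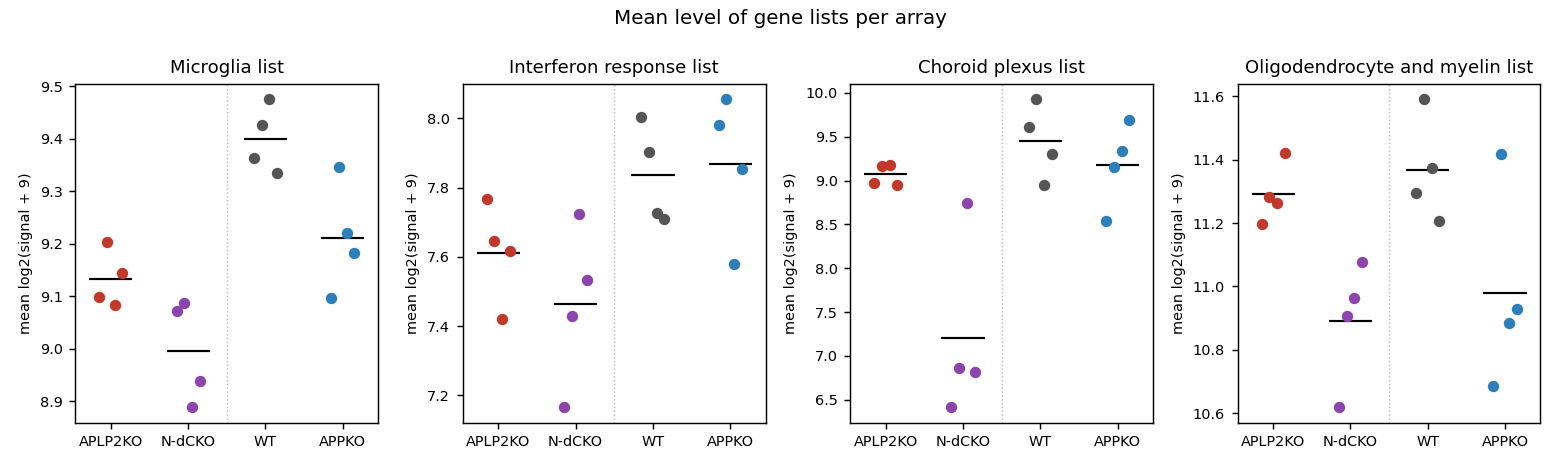
Mean log2(signal + 9) of the microglia, interferon response, choroid plexus and oligodendrocyte and myelin lists on each array by genotype, with 4 points and their mean (line) per genotype and the arrays without APLP2 left of the dotted line. Microglia means are 8.89 to 9.20 on the arrays without APLP2 and 9.10 to 9.48 on those with it, and the choroid plexus means of N-dCKO arrays 1, 2 and 4 lie between 6.41 and 6.86, below all other arrays.

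The chromosome that carries Aplp2, chromosome 9, held more called genes than any other. Of 673 tested genes there, 35 (5.2%) were called, 14 higher and 21 lower, against 72 of 10991 tested genes elsewhere (0.655%). Chromosome 9 thus gave 32.7% of all calls. Chromosomes 3 (13 of 588, 2.21%) and 15 (10 of 457, 2.19%) followed, and chromosome 18 had 0 calls among 310 genes. Without N-dCKO arrays 1, 2 and 4, 19 of the 63 called genes lay on chromosome 9. Sequence variants linked to the Aplp2 deletion and the deletion itself cannot be told apart in this design.

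The calls on chromosome 9 did not crowd around Aplp2 itself. Within 10 Mb of its start (gene table of GRCm38.p6), 2 of 90 tested genes (2.22%) were called, Aplp2 and Vps26b. Between 10 and 20 Mb there were 16 of 114 (14%), between 20 and 30 Mb 6 of 95 (6.32%), between 30 and 50 Mb 8 of 108 (7.41%), and beyond 50 Mb 3 of 266 (1.13%). Of the 16 called genes between 10 and 20 Mb, 15 lie on the side of higher coordinates. They form a run of 15 called genes among 46 tested over 4.65 Mb, Nlrx1 to Htr3a, of which 6 were higher and 9 lower. A run joins called genes whose starts lie at most 2 Mb from the next, a rule chosen after the values were seen. Each run begins and ends at a called gene, so the share called within it is high by construction. Of the 3 called genes nearest to Aplp2, Vps26b, a retromer subunit, starts 4.15 Mb away and fell by a small amount (log2 fold change -0.27 ± 0.046, adjusted p = 0.00427, and -0.27, adjusted p = 0.0974, without the 3 N-dCKO arrays). Zfp846, a zinc finger gene at 10.6 Mb, rose (log2 fold change 0.49 ± 0.10, adjusted p = 0.0149), and Nlrx1, a mitochondrial NOD-like protein at 13.1 Mb, fell (log2 fold change -0.58 ± 0.13, adjusted p = 0.0321).

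**Figure D3:**
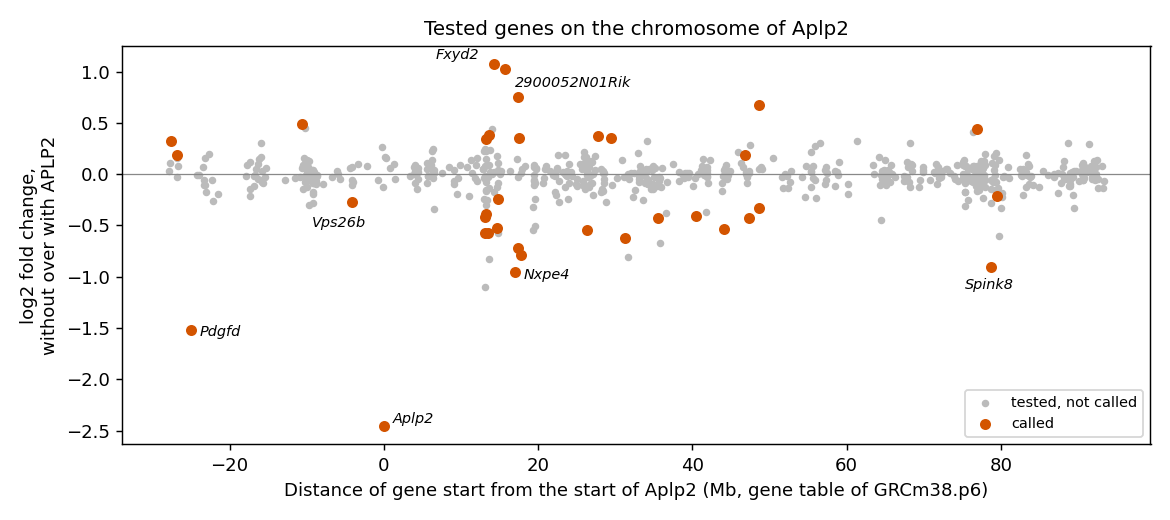
Log2 fold change without over with APLP2 of the 673 tested genes on chromosome 9 against the distance of the gene start from that of Aplp2 (Mb), with the 35 called genes in orange and the others in grey. Called genes lie mostly between 10 and 50 Mb from Aplp2, on both sides of 0, and 1 gene besides Aplp2 is called within 10 Mb.

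The genes of the long run on chromosome 9 rose and fell side by side. Fxyd2, a regulatory subunit of the sodium and potassium pump, rose without APLP2. Its signal was 336, 542, 364 and 359 in APLP2KO and 348, 427, 440.4 and 283 in N-dCKO, against 161, 141, 191 and 218 in WT and 152, 183, 209 and 168 in APPKO (log2 fold change 1.07 ± 0.12, adjusted p = 4.70e-05). The lowest array without APLP2 was above the highest with it, and the 3 probe sets of Fxyd2 that passed the filter gave 1.07, 0.78 and 1.01. The transcript 2900052N01Rik, to which the files give no role, had 1984, 2307, 2792 and 1674 in APLP2KO and 1881, 2626, 2668 and 2077 in N-dCKO, against 1222, 1106, 973 and 948 in WT and 1388, 1319, 855 and 1009 in APPKO (log2 fold change 1.02 ± 0.11, adjusted p = 4.02e-05). Its 2 sides did not overlap, and its differences with APP present and absent were both 1.02. Ift46, a protein of intraflagellar transport in cilia, also rose with no overlap (1198 to 1591, median 1426, without and 948 to 1142, median 1063, with APLP2; log2 fold change 0.38 ± 0.059, adjusted p = 0.00187).

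In the same run, Nxpe4 fell, at 226 to 527, median 302, without and 597 to 744, median 662, with APLP2 (log2 fold change -0.95 ± 0.15, adjusted p = 0.00187). So did Htr3a, the serotonin receptor subunit of a class of interneurons, at 92.1 to 219, median 159, without and 199.7 to 353, median 253, with APLP2 (log2 fold change -0.78 ± 0.13, adjusted p = 0.00464). Without the 3 N-dCKO arrays Htr3a was at -0.80 (adjusted p = 0.0569). Ddx6, an RNA helicase of processing bodies, had 2344 to 3075, median 2491, without and 3619.7 to 4338, median 3861, with APLP2, also with no overlap (log2 fold change -0.58 ± 0.057, adjusted p = 1.44e-05). That call rests on 1 probe set: the 2 others that passed the filter gave 0.15 and -0.17, and with the mean over probe sets Ddx6 was not called.

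Further from Aplp2, Pdgfd, a growth factor that binds the PDGF receptor beta, had the largest fall on the chromosome after Aplp2. Its signal was 139, 115, 107 and 99 in APLP2KO and 62.4, 60.5, 174 and 102 in N-dCKO, against 361, 361, 285 and 318 in WT and 276, 243, 280 and 385 in APPKO (log2 fold change -1.52 ± 0.16, adjusted p = 3.93e-05). All 8 arrays without APLP2 lay below all 8 with it, and without N-dCKO arrays 1, 2 and 4 the fall was smaller at -1.09 (adjusted p = 0.000725). Spink8, a protease inhibitor expressed by CA1 pyramidal neurons, fell with no overlap (287 to 793, median 475, without and 814 to 893, median 846, with APLP2; log2 fold change -0.90 ± 0.13, adjusted p = 0.00102). Its arrays without APLP2 were spread widely, while those with APLP2 lay close together, a pattern that Nxpe4 and Exosc9 shared. Mto1, an enzyme of mitochondrial tRNA modification, fell (420.2 to 571, median 478, without and 584 to 721, median 646, with APLP2; log2 fold change -0.43 ± 0.067, adjusted p = 0.00187).

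Among the genes higher on chromosome 9, Neo1, the netrin and RGM receptor neogenin, rose by 0.38 ± 0.047 (adjusted p = 0.000191) with 2692 to 3468, median 2968, without and 2190.3 to 2480.1, median 2282, with APLP2. Gucy1a2, a subunit of soluble guanylate cyclase, rose by 0.32 (adjusted p = 0.00928). Elovl5, which elongates polyunsaturated fatty acids, rose by only 0.19 (adjusted p = 0.0095), yet its 8 arrays without APLP2 (4503 to 5069.6, median 4600.4) all lay above the 8 with it (3901 to 4387, median 4087). Without the 3 N-dCKO arrays Gucy1a2 was at 0.36 (adjusted p = 0.0666) and Elovl5 at 0.19 (0.133). Coro2b, an actin-binding coronin, fell on 1 of its probe sets (log2 fold change -0.63 ± 0.087, adjusted p = 0.000589), while the other gave -0.066. Of the called genes that had a further probe set past the filter, every such probe set had the same sign in 10 of 15 on chromosome 9 and in 18 of 26 elsewhere.

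Off chromosome 9, a second cluster of calls lay on chromosome 3. In this run of 1.46 Mb, 6 of 13 tested genes were called, beside 0.655% of all genes off chromosome 9. The span was set by the calls themselves, so this share is high by construction. Mccc1, Exosc9, Cetn4 and Spata5 were lower and Acad9 and 4932438A13Rik higher. Mccc1, Spata5 and 4932438A13Rik are named for their place in the run. With those 3 N-dCKO arrays (1, 2 and 4) left out, Exosc9 (-0.73, adjusted p = 0.0385) and Cetn4 (-0.68, 0.0282) were called, while Mccc1 (-0.27, 0.388), Spata5 (-0.31, 0.411), Acad9 (0.45, 0.17) and 4932438A13Rik (0.21, 0.361) did not pass. Exosc9, a subunit of the RNA exosome, had 592, 909.8, 905 and 436 in APLP2KO and 518, 463, 815 and 577 in N-dCKO, against 1345, 1230.5, 1234 and 1261 in WT and 1159.6, 1232, 1281 and 1203 in APPKO (log2 fold change -0.97 ± 0.13, adjusted p = 0.000333). Cetn4, a centrin of ciliated cells, had 246, 323, 439.7 and 286 in APLP2KO and 163, 194, 429.8 and 183 in N-dCKO, against 618, 764, 642 and 529 in WT and 550.4, 588, 580.4 and 519.6 in APPKO (log2 fold change -1.13 ± 0.15, adjusted p = 0.000496). Cetn4 was at -0.58 (adjusted p = 0.203) when the covariate was the choroid plexus mean. In both genes every array without APLP2 was below every array with it, and the arrays without APLP2 ranged over more than those with it. Acad9, an acyl-CoA dehydrogenase and complex I assembly factor, rose by 0.47 ± 0.087 (adjusted p = 0.00928) on 1 probe set and had -0.25 on the other. Further probe sets past the filter also had the opposite sign in Spata5 (0.14 and 0.033, against -0.42) and Mccc1 (0.035, against -0.42). Exosc9, Cetn4 and 4932438A13Rik had no further probe set past the filter.

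The remaining leading genes lay on other chromosomes. Card10, a scaffold of NF-kappa-B signalling on chromosome 15, had 430.3, 495, 334 and 346 in APLP2KO and 444, 300.2, 362 and 364 in N-dCKO, against 142, 185, 206 and 308 in WT and 145, 176, 131 and 183 in APPKO (log2 fold change 1.05 ± 0.13, adjusted p = 0.00021). The sides overlapped by WT array 4 alone, which was above N-dCKO array 2. Card10 had called neighbours on both sides, Ift27 (-0.30) and Pla2g6 (0.37), within a span of 1.13 Mb that held 26 tested genes. These neighbours were called in 4 (Ift27) and 6 (Pla2g6) of the 16 fits without 1 array, and without the 3 N-dCKO arrays they were at -0.32 (adjusted p = 0.154) and 0.29 (0.408). Trub2, a mitochondrial pseudouridine synthase on chromosome 2, rose with no overlap (423 to 583, median 468, without and 281 to 362, median 321, with APLP2; log2 fold change 0.59 ± 0.073, adjusted p = 0.000191), and its 3 probe sets gave 0.59, 0.55 and 0.30. Ahr, the aryl hydrocarbon receptor on chromosome 12, also rose with no overlap (718 to 952, median 819.9, without and 511 to 703, median 629, with APLP2; log2 fold change 0.43 ± 0.074, adjusted p = 0.00468), and was at 0.41 (adjusted p = 0.124) without the 3 N-dCKO arrays.

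Zfp874a, a zinc finger gene, fell (146 to 329, median 210.3, without and 298 to 404, median 364, with APLP2; log2 fold change -0.72 ± 0.11, adjusted p = 0.00171). Krt18, a keratin of simple epithelia, fell by 0.85 ± 0.14 (adjusted p = 0.00241), with 112, 133, 106 and 91.6 in APLP2KO and 60.6, 63.7, 96.2 and 59.7 in N-dCKO, against 238, 181, 144 and 146 in WT and 130.1, 154, 144 and 205 in APPKO. The N-dCKO arrays lowest in Krt18 were arrays 1, 2 and 4, and without them it was at -0.64 (adjusted p = 0.164). Uggt2, which tests glycoprotein folding in the endoplasmic reticulum, rose (log2 fold change 0.60 ± 0.10, adjusted p = 0.00527), as did Lypd1, a relative of the nicotinic receptor modulator Lynx1 (log2 fold change 0.40 ± 0.070, adjusted p = 0.00483), whose other probe set gave -0.23. Under all 32 other settings in which they were tested, leaving out single arrays included, 12 named genes kept their call: Aplp2, Mpeg1, Pdgfd, 2900052N01Rik, Fxyd2, Card10, Galc, Spink8, Selplg, Ift46, Mto1 and Fcrls.

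In a few called genes the arrays of 1 genotype fell into separate levels, and Serpina3n and Rbm45 are named here after their values were seen. Serpina3n, a serine protease inhibitor made by reactive astrocytes, had 1216, 327, 1478 and 1399 in APLP2KO and 1188, 331, 1191 and 1475 in N-dCKO. It had 352, 328, 416 and 321 in WT and 349.6, 373, 435 and 319 in APPKO. Thus 6 of the 8 arrays without APLP2 were high and the other 2, APLP2KO array 2 and N-dCKO array 2, were at the level of the arrays with APLP2 (log2 fold change 1.35 ± 0.28, adjusted p = 0.0226). Rbm45, an RNA-binding protein, had 1542, 1094, 1166 and 566 in APLP2KO and 1680.1, 478, 1121 and 1177 in N-dCKO, against 582, 468, 542 and 509 in WT and 485, 628, 495 and 590.4 in APPKO (log2 fold change 0.92 ± 0.20, adjusted p = 0.0271). Again 6 of 8 arrays without APLP2 were above all arrays with it, with APLP2KO array 4 and N-dCKO array 2 low.

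Wdfy1, an endosomal FYVE-domain protein, showed the reverse arrangement. It had 1008, 960.3, 1518 and 1075 in APLP2KO and 911, 967, 1050.2 and 1021 in N-dCKO, against 1012, 351, 407 and 969 in WT and 409, 351, 299 and 365 in APPKO (log2 fold change 1.16 ± 0.18, adjusted p = 0.00171). All 8 arrays without APLP2 were high, and so were WT arrays 1 and 4, while the other 6 arrays with APLP2 lay between 299 and 409. Its 3 probe sets that passed the filter gave 1.16, 1.17 and 0.79. Nnt, a mitochondrial transhydrogenase also named after its values were seen, is given for its shift and not for separate levels. It was higher by 0.51 ± 0.11 (adjusted p = 0.0197), at 553 to 886, median 825, without and 411 to 779, median 563, with APLP2, and the 2 sides overlapped. Without the 3 N-dCKO arrays Nnt was at 0.53 (adjusted p = 0.197).

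**Figure D4:**
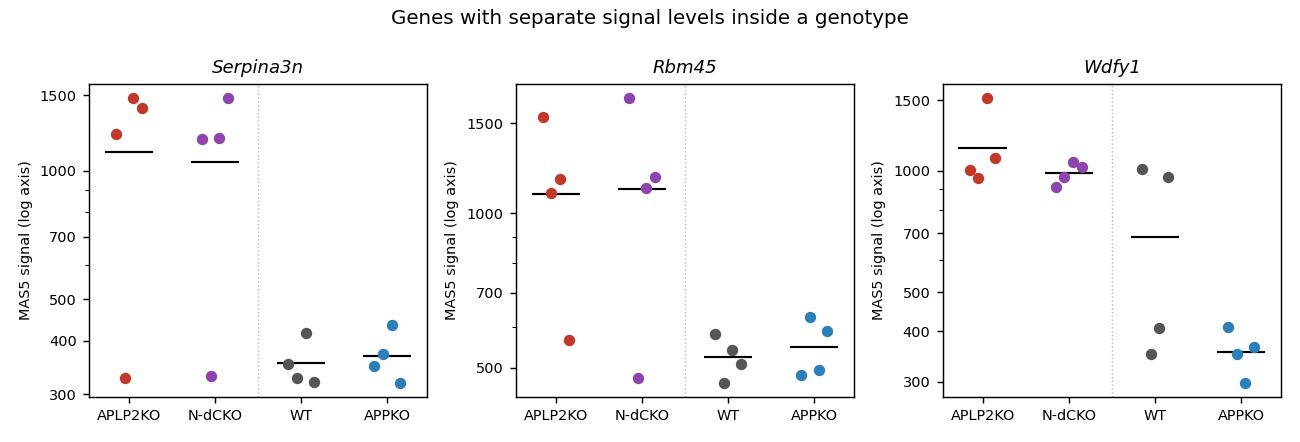
MAS5 signal (log axis) of Serpina3n, Rbm45 and Wdfy1 on each array by genotype, with 4 points and their mean (line) per genotype and the arrays without APLP2 left of the dotted line. In Serpina3n and Rbm45, 6 of 8 arrays without APLP2 lie above all arrays with it, and in Wdfy1 WT arrays 1 and 4 lie at the level of the arrays without APLP2.

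The choroid plexus list had more called genes than any other list, and their calls and much of the size of their shift rested on part of 1 genotype. Of 19 tested genes, 11 (57.9%) were called lower and 0 higher, beside 0.617% of all genes called lower. All 19 had a negative difference, against 51.8% of all genes, and the median was -1.18. The median was -0.46 for APLP2KO against WT, with 16 of the 19 genes negative, and -1.71 for N-dCKO against APPKO. Without N-dCKO arrays 1, 2 and 4 the median of the main effect was -0.47, with 17 of the 19 genes negative. Kl (klotho) had 275, 363, 313 and 347 in APLP2KO and 93.6, 72.2, 247 and 90.1 in N-dCKO, against 598, 814, 324 and 444 in WT and 231, 446, 416 and 504 in APPKO (log2 fold change -1.18 ± 0.22, adjusted p = 0.00858). Aqp1, the water channel of the plexus, had 172, 208, 179.6 and 128 in APLP2KO and 25.9, 53.6, 139 and 14.8 in N-dCKO, against 298, 357, 200.3 and 274 in WT and 175, 227, 286 and 421 in APPKO (log2 fold change -1.52 ± 0.27, adjusted p = 0.00703). The low values were those of N-dCKO arrays 1, 2 and 4 in each of these genes. Ttr, the thyroid hormone carrier that is the most abundant plexus transcript, was at 109.8, 283, 34285 and 715 in N-dCKO and at 26344 to 37234 on the other 12 arrays, and it was not called (log2 fold change -2.46 ± 0.71, adjusted p = 0.134).

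Without N-dCKO arrays 1, 2 and 4, 0 of the 19 choroid plexus genes were called. In that fit Kl was at -0.64 (adjusted p = 0.374), Aqp1 at -0.78 (0.164) and Clic6, a chloride channel protein named after its values were seen, at -0.77 (0.331). APLP2KO arrays, none of which was low in the list mean (8.95 to 9.18), overlapped with WT (8.95 to 9.93). The amount of plexus tissue in each sample was not measured. Ependymal genes, from the ciliated lining next to the plexus, had 0 calls among 12 tested with the 16 arrays, beside 0.917% of all genes called. Differences were negative in 11 (median -0.13), against 51.8% of all genes, with Ccdc153 at -1.10 (adjusted p = 0.0688, limma). Ccdc153 lies on chromosome 9, 13.1 Mb from the start of Aplp2 and beside Nlrx1, the first gene of the long run there. Without N-dCKO arrays 1, 2 and 4 its shift was larger, at -1.79, and it was called in that fit. With only the 8 arrays of APLP2KO and WT in the fit it was called at -1.40 (adjusted p = 0.021, limma). Pifo, the ependymal gene with the next smallest p over all 16 arrays, was at -0.37 (adjusted p = 0.331, limma).

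All 14 tested interferon response genes had negative differences with the 16 arrays, against 51.8% of all genes. Of the 14, 1 was called, beside 0.917% of all genes. Without N-dCKO arrays 1, 2 and 4, 12 of 14 were negative, 0 were called and the median was -0.20, against -0.31 with all arrays. When the covariate was the choroid plexus mean, 10 were negative, 0 were called and the median was -0.18. Ifi27 fell, with 971, 1007, 1003 and 1060 in APLP2KO and 664, 639, 755 and 917 in N-dCKO, against 1092, 1408, 1264 and 1017 in WT and 1009, 1136, 1081 and 976 in APPKO (log2 fold change -0.37 ± 0.074, adjusted p = 0.0165). Its N-dCKO arrays were below all others, and its APLP2KO arrays overlapped with both genotypes that have APLP2. Ifi27 and Serpina3n, which rose, start 0.972 Mb apart on chromosome 12, with no other tested gene starting between them. Ifi27 was at -0.35 (adjusted p = 0.0993) without N-dCKO arrays 1, 2 and 4. With all arrays the list's median was -0.31, with -0.19 for APLP2KO against WT and -0.43 for N-dCKO against APPKO. An unadjusted limma p below 0.05 was found in 9 of the 14, beside 10.5% of all genes. Bst2 (tetherin) differed by -0.54 (adjusted p = 0.0857) and Usp18, a deubiquitinase-like brake on interferon signalling, by -0.62 (0.218). Mean log2 signals of the list were 7.17 to 7.77 without APLP2, against 7.58 to 8.06 with it. Genes of MHC class I and antigen presentation had 0 calls among 11, with 10 negative differences and a median of -0.14. Of these genes, Pdia3, Calr and Canx are also on the list of endoplasmic reticulum chaperones.

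Of 21 tested chaperones and stress genes of the endoplasmic reticulum, 1 was called, beside 0.917% of all genes. A negative difference was found in 17, against 51.8% of all genes. The median was -0.17 (-0.18 for APLP2KO against WT and -0.11 for N-dCKO against APPKO). An unadjusted limma p below 0.05 with a negative sign was found in 12, beside 10.5% of all genes with such a p in either direction. Hspa5, the chaperone BiP, fell by 0.32 ± 0.073 (adjusted p = 0.0404). Its signal was 6791, 6842, 8340.4 and 7162 in APLP2KO and 6949, 6431, 8914 and 9145 in N-dCKO, against 9479.9, 10690.2, 9595 and 8679 in WT and 9683, 9923, 7912 and 9104 in APPKO, so APLP2KO array 3 and N-dCKO arrays 3 and 4 lay within the range of the arrays with APLP2. Hspa5 was called in 5 of the 16 fits without 1 array and under 5 of 16 other settings, and it did not pass with the replicate block (adjusted p = 0.0509) or without N-dCKO arrays 1, 2 and 4 (-0.22, 0.367). Pdia3, a disulfide isomerase (-0.18, adjusted p = 0.0909), Herpud1 (-0.25, 0.123) and Sdf2l1 (-0.36, 0.222) did not pass.

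Lists of genes of neurons and of other glia had a single call or 0 calls each, beside 0.917% of all genes called. With so few genes per list, such counts say little about the members. Of the glutamate receptors, GABA receptors, presynaptic vesicle genes, postsynaptic scaffolds, and neurexins with their partners, 0 of 18, 9, 26, 17 and 12 tested genes were called. In the myelin list 0 of 20 were called, with a median of -0.044, and 0 of 17 astrocyte and 0 of 11 oligodendrocyte precursor genes were called. Of 22 immediate early genes, which neurons switch on with activity, Klf10 was called higher (log2 fold change 0.33 ± 0.066, adjusted p = 0.0161, and 0.35, adjusted p = 0.0765, without the 3 N-dCKO arrays) and 17 had a positive difference (median 0.12). C1ql2, a synaptic protein of dentate granule cells, fell (log2 fold change -0.30 ± 0.069, adjusted p = 0.0404), the single call among 14 granule cell genes. Npas2, a clock transcription factor, rose (log2 fold change 0.33 ± 0.076, adjusted p = 0.0445), the single call among 18 clock genes. Of the 16 fits without 1 array, C1ql2 was called in 4 and Npas2 in 3, and without N-dCKO arrays 1, 2 and 4 they were at -0.20 (adjusted p = 0.506) and 0.22 (0.503). Htr3a, Spink8, Galc and Fxyd2, described with their chromosomes or states of APP, were the single calls among 16 interneuron, 17 pyramidal neuron, 25 lysosomal and 19 sodium and potassium transport genes. Endothelial and mural (0 of 18), leptomeningeal (0 of 14), neurogenesis (0 of 18), neuropeptide (0 of 22), lipid synthesis (0 of 23), heat shock (0 of 14), metal handling (0 of 22), insulin and IGF (0 of 19), oxidative phosphorylation (0 of 26) and ribosomal protein genes (0 of 19) had no calls. The blood list had 1 tested gene, which was not called, and the APP family's 17 cytoplasmic adaptors had 0 calls.

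The shift without APLP2 was then set side by side with APP present and with APP absent, in comparisons that share no array. With all 16 arrays in the fit, 15 genes (0.129%) were called for APLP2KO against WT, 7 higher (0.06%) and 8 lower (0.0686%), a split that was 4 and 11 with median centring and 9 and 7 with quantile normalization. For N-dCKO against APPKO 41 genes (0.352%) were called, 7 higher (0.06%) and 34 lower (0.291%). The 4 arrays of each genotype did not overlap in 513 genes (4.4%) for APLP2KO against WT and in 465 (3.99%) for N-dCKO against APPKO. All 107 genes of the main effect had the same sign in both, which the choice of genes by their mean shift largely fixes. Of the 107, 15 were called in the first, 37 in the second, 8 in both and 63 in neither. When each set of 8 arrays was fitted alone, 21 genes (0.18%) were called for APLP2KO against WT and 9 (0.0772%) for N-dCKO against APPKO. With the replicate block in these fits the counts were 37 and 34. The 4 genes called in both fits were Aplp2, 2900052N01Rik, Ddx6 and Fxyd2, all on chromosome 9.

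Genes chosen in one set of arrays mostly shifted the same way in the other. Most genes chosen in each set lie on chromosome 9. Aplp2 is among them, and the knockout fixes its fall in both sets. Off chromosome 9, the genes chosen with APP present kept their sign with APP absent. Mpeg1, Cetn4, Trub2, Zfp874a, Etnppl and Uggt2 had an unadjusted limma p below 0.05 there, and Galc, Klf10 and Tlcd4 a larger one. Those off chromosome 9 chosen with APP absent also kept their sign with APP present. Card10, Exosc9 and Wdfy1 had such a p there, and Tmem254a did not. Of the 21 genes called with APP present, 21 had the same sign with APP absent, and 15 of these had an unadjusted p below 0.05 there, beside 7.24% of all genes with such a p. Their median shift was 0.92 where they were chosen and 0.57 in the other set. Of the 9 genes called with APP absent, 9 had the same sign with APP present and 8 had such a p, beside 7.54% of all genes, with medians of 1.06 and 0.89.

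No gene passed the test of whether its shift differed between the states of APP. The interaction called 0 genes with limma, with 484 (4.15%) at an unadjusted p below 0.05. Galc, the lysosomal enzyme that breaks down galactosylceramide, had the smallest p. Its signal was 574, 673, 614 and 671 in APLP2KO, against 379, 344, 322 and 338 in WT, and 443, 409.9, 515 and 489 in N-dCKO, against 461, 432, 400.2 and 370.5 in APPKO. The sides were apart with APP present (0.86, adjusted p = 0.00014) and overlapped with APP absent (0.16, adjusted p = 0.76). The interaction was -0.70 (unadjusted p = 4.77e-05, adjusted p = 0.557), and the main effect was log2 fold change 0.51 ± 0.067, adjusted p = 0.000397. The next smallest unadjusted p-values were those of Gfpt1 (0.000487), Cyb5d2 (0.000513), Cln8 (0.000854) and Slc32a1 (0.000875), each with an adjusted p of 1. Without N-dCKO array 3, 11 genes were called in the interaction, of which 9 were on the choroid plexus list and the others were Galc (adjusted p = 0.0393) and Defb11, an antimicrobial defensin.

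**Figure D5:**
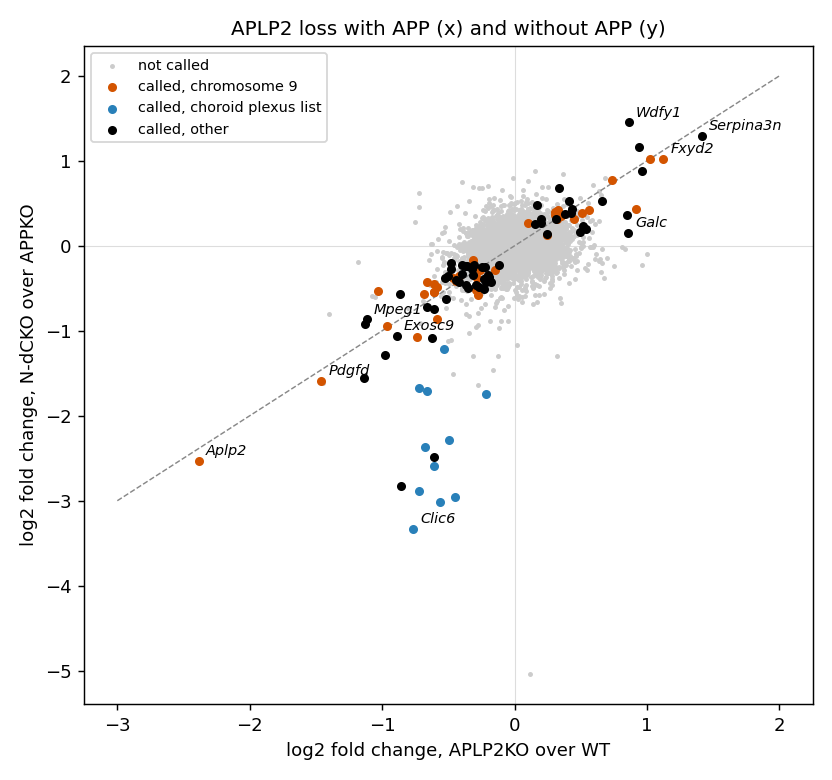
Log2 fold change of N-dCKO over APPKO (y axis) against that of APLP2KO over WT (x axis) for the 11664 tested genes, with called genes of the main effect coloured by chromosome 9, choroid plexus list and other, and equal shifts on the dashed line. Aplp2, Pdgfd, Mpeg1 and Fxyd2 lie near the dashed line, called choroid plexus genes such as Clic6 lie below it, and Galc lies near 0 on the y axis.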

How the data were processed

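The deposited intensity values are linear MAS5 signals, per the submitters' processing notes. The sources used here do not give the version of MAS5. The 2% trimmed mean was 500 on each array, a scaling that was kept. The table held 45101 probe sets, 64 of them controls, and 0 columns belonged to no sample. Gene names came from the annotation of the array, with 34945 probe sets paired with 1 symbol, 932 with several and 9211 with none. The gene table of GRCm38.p6, which held 34741 of them, gave chromosomes and distances.

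Signals were taken as log2(signal + 9), so that the change of dim genes is understated. Probe sets with a mean of at least 6.60 were kept (22551), and each of the 11664 genes was represented by its brightest probe set. The model in limma 3.58.1 (R 4.3.3, data.table, version 1.17.8) had 1 mean per genotype over all 16 arrays and a variance trend, with 12 residual and 19.4 total degrees of freedom. The contrast was the mean of APLP2KO and N-dCKO minus the mean of WT and APPKO. The interaction and each difference came from the same fit. P-values are two-sided and adjusted by Benjamini-Hochberg over all genes tested. Precision is limited by the number of arrays, and the median SE was 0.069 for the main effect and 0.14 for the interaction. The scripts were tested on simulated data.

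Named genes are the APP family, the 14 called genes in each direction with the smallest p and the same sign in both differences, the 5 with the smallest interaction p, called and leading members of 34 gene lists, and the 3 called genes nearest to Aplp2. Other genes, such as Ctss, C1qc, Ttr, further list members and neighbours of called genes, were named after their values were seen. The comparison, the lists and the rule were chosen with earlier results of these data known. Alternatives covered scaling, pseudocount, filter, probe set choice, variance model, array weights, replicate block, covariates and arrays left out.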

Additional observations from a re-analysis of the deposited data

Results flagged for a closer look

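In 22 of 416 sets of 4 arrays (104 named genes in 4 genotypes), 1 array lay further from the other 3 than Dixon's critical value of 0.829 allows. Chance gives about 1 in 20 such sets, which is about the share seen. The genes are given here as signals, and no explanation was tested.

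In APLP2KO, the array far from its group was high for Fxyd2 (542 on array 2), Selplg (490.1 on array 3), 4932438A13Rik (2319.7 on array 4) and Crh (534 on array 2). It was low for Zfp874a (146 on array 1), Lypd1 (1394 on array 2), Serpina3n (327 on array 2) and Ermn (768 on array 1). In N-dCKO it was high for Krt18 (96.2), Steap1 (151) and Sostdc1 (728), all on array 3, for Ahr (921) and Gabra2 (3738) on array 1, and for Pdia3 (4968 on array 4). Serpina3n was low on N-dCKO array 2 (331). For Krt18, Steap1 and Sostdc1 the other 3 N-dCKO arrays were those low in choroid plexus genes.

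In WT the array far from the rest was high for Htr3a (353 on array 1) and Gfpt1 (2399 on array 2) and low for Cdh5 (136 on array 2). In APPKO it was high for Vps26b (2450.1 on array 1) and Aplp1 (15846 on array 3), and low for Ccdc153 (69.2) and Pdia3 (4576), both on array 1.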

How the results depend on the processing

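The main effect called 107 genes, and its count was within 1.5 times of that under quantile normalization (109), median centring (101), pseudocounts of 1 (103) and 36 (109), no filter (85), the mean over probe sets (107) and the additive model (99), which shared 78 to 107 genes with the 107. Other settings moved counts further. A filter at the 75th percentile, with fewer genes tested, gave 56 main effect calls, 15 for N-dCKO against APPKO, 3 for APLP2KO against WT and 8 within 20 Mb of Aplp2. The ordinary test without moderated variances gave 36, 2, 7 and 7 in the same order. The Gapdh ratio as a covariate gave 54, 20 and 8 for the first 3 of these (47 of the 107 shared). The choroid plexus mean as a covariate gave 26 main effect calls (20 shared), 1 for N-dCKO against APPKO and 9 near Aplp2. Without N-dCKO arrays 1, 2 and 4 there were 63, with 12 for N-dCKO against APPKO and 25 for APLP2KO against WT. Each probe set alone gave 31 calls for APLP2KO against WT and 28 near Aplp2, and no variance trend gave 20 for N-dCKO against APPKO. Fitting only the 8 arrays gave 9 for N-dCKO against APPKO. Windows of 10 and 5 Mb around Aplp2 held 2 called genes each, against 18 within 20 Mb. The cause of these moves was not tested beyond their construction.

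Leaving out 1 array at a time gave 71 to 117 main effect calls (71 without APLP2KO array 1), 19 to 56 for N-dCKO against APPKO (19, 20 and 22 without APPKO array 4, N-dCKO array 4 and APPKO array 3), 9 to 19 for APLP2KO against WT (9 without WT array 1, 2 or 3) and 12 to 21 near Aplp2. The interaction had 0 calls in each of these fits but 1, where N-dCKO array 3 was left out and 11 genes were called. Of the 107 genes, 62 were called in all 16 such fits. No called value of a named gene changed sign under the alternatives run.

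Arrays with the same replicate number correlated between -0.022 and 0.30 in their deviations from the genotype means, above 0.1 in 7 of 24 pairs. Arrays with different numbers correlated between -0.20 and 0.17. Each of the 16 arrays was closest to arrays of its own number, a hint of a shared replicate structure. The labels do not say whether the numbers pair the samples, and the main fit left them out. With the replicate block 137 genes were called in the main effect, 57 for N-dCKO against APPKO and 30 for APLP2KO against WT, and with the block in fits of only 8 arrays 37 for APLP2KO against WT and 34 for N-dCKO against APPKO.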

Other observations

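Some called genes outside the lists and runs had large shifts. Prr32 on the X chromosome fell by 1.54 on the log2 scale (adjusted p = 0.0271), Ang, a secreted ribonuclease, by 1.35 (0.0115) and Etnppl, a phospholyase of astrocytes, by 1.02 (0.0313), all in the limma fit of the main effect. In the fit without N-dCKO arrays 1, 2 and 4, Ang (-1.97, adjusted p = 0.000725) and Etnppl (-1.29, 0.0235) were called and Prr32 (-0.70, 0.387) did not pass. Defb11, a defensin, fell by 1.84 (0.00427). Its signal was 227, 271, 217 and 155 in APLP2KO and 33.6, 9.16, 100.4 and 7.53 in N-dCKO, against 414, 572, 264 and 382 in WT and 132, 209.9, 259.6 and 421 in APPKO, so that its lowest arrays were N-dCKO arrays 1, 2 and 4, as for the choroid plexus genes. Without them it was at -1.01 (adjusted p = 0.135). These genes are named after their values were seen.

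Gabra2, a GABA receptor subunit, had 3279, 3572, 2253 and 3730 in APLP2KO and 3738, 2356, 2215 and 2376 in N-dCKO, against 1919, 2515, 2057 and 2113 in WT and 2037, 2228, 1025 and 2465 in APPKO, with a difference of 0.53 that was not called (adjusted p = 0.134). APLP2KO arrays 1, 2 and 4 and N-dCKO array 1 were the highest of the 16, and the other 4 without APLP2 lay between 2215 and 2376, while the arrays with APLP2 lay between 1025 and 2515.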
